A study of Mus musculus with 24 samples.

Results

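The 7 transcripts described here encode transporters and enzymes with which the proximal tubule reclaims bicarbonate and handles ammonia. They are Slc9a3, Slc4a4, Car4, Car14, Slc38a3, Glud1 and Glul. They were taken by symbol from a fixed list, out of 55335 genes in the count tables. All 7 were among the 16092 transcripts tested, those that reached 1 CPM or more in any kidney. CPM is the read count of a gene scaled to a common library size.

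RNA was sequenced from whole kidneys of 24 adult mice, with 6 male controls (Ctrlm), 6 male knockouts (cKOm), 6 female controls (Ctrlf) and 6 female knockouts (cKOf). The cKO mice were Pex5lox/lox/Pax8-rtTA/LC1, and the controls were littermates with floxed Pex5 but without Pax8-rtTA and LC1. Pax8-rtTA and LC1 together bring Cre recombinase to cells of the renal tubule in the presence of doxycycline (DOX), and Cre removes a part of Pex5, the gene of the receptor that carries most enzymes into peroxisomes. All mice, controls included, were on the C57BL/6J background and were given DOX for 2 weeks from the age of 8 weeks. Kidneys were collected 4 weeks after the end of DOX, at 14 weeks of age. The labels disagree on the hour, with 9 h after light on in the description of tissue collection and 3 h after light on for experiments in general. The effect of Pex5 deletion and that of carrying the transgenes cannot be told apart in this design. The comparison asked how the transcript levels of these genes differ between cKO and control kidneys of each sex.

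The proximal tubule reabsorbs most of the filtered bicarbonate. Protons leave the cell through the apical exchanger NHE3 (Slc9a3), carbonic anhydrases at the cell surface (Car4, Car14) interconvert bicarbonate and carbon dioxide, and the basolateral cotransporter NBCe1 (Slc4a4) returns bicarbonate to the blood. The same cells take up glutamine, in part through the basolateral transporter SNAT3 (Slc38a3), and break it down in mitochondria, where glutamate dehydrogenase (Glud1) takes part, which releases ammonium for the urine. Glutamine synthetase (Glul) works in the opposite direction and consumes ammonia.

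Each kidney had 19376152 to 28470831 reads on genes. The floor of 3 counts for a detected transcript was 0.105 to 0.155 CPM and covers counting error only. The 7 transcripts lay far above it, with the lowest count in any kidney being 702, for Slc38a3. Pex5 itself, checked first, was lower in every cKOm than in every Ctrlm kidney (log2 scale -0.31, standard error 0.08, edgeR adjusted p = 0.0219), whereas the female groups overlapped (log2 fold change -0.21, edgeR adjusted p = 0.177). Reads came from all cells of the kidney and all exons of Pex5, so this value does not measure the excision in tubule cells. The paper reported leftover full-length Pex5 mRNA and some PEX5 protein in cKOf kidneys, and proposed that excision there was incomplete. Its electron microscopy found almost no peroxisomes in proximal tubules of either sex. Where the genotype effect differed between the sexes, sex and the extent of deletion cannot be told apart. A pair of features set some libraries apart. In 4 libraries (Ctrlm 1, Ctrlm 5, Ctrlf 4 and cKOf 6), between 4.45 and 4.80% of all reads fell outside annotated exons, against 5.37 to 6.66% in the other 20. The liver transcript Alb exceeded 200 CPM in 5 kidneys (Ctrlm 1 to 4 and cKOm 4). Results on the members are given with and without these libraries where a call changed, and for Car4, Slc4a4 and Glul in males. Leaving out the second set leaves 2 Ctrlm kidneys, and both settings were chosen after the data had been seen.

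Per kilobase of annotated exon, the levels in Ctrlm kidneys ran from 196 CPM per kb for Glul through 108 for Slc4a4, 93.6 for Glud1, 72.5 for Car4, 33.9 for Slc9a3 and 28.0 for Car14 to 9.16 for Slc38a3. Glul also had the highest level per kilobase in the other groups, at 186 in cKOm, 287 in Ctrlf and 278 in cKOf kidneys, and Slc38a3 the lowest, at 12.1, 14.7 and 14.7.

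In males, 1 of the 7 transcripts passed the threshold of 0.05 on the adjusted p between cKOm and Ctrlm mice, Car4, which was lower in cKOm mice. Over all transcripts tested, 9.05% passed, and 4.9% were lower. At an unadjusted p under 0.05 the number was 2 of 7, Car4 and Slc38a3, against 25.1% of all transcripts. In females, 0 of the 7 passed, where 0.851% of all transcripts did. None of the 7 had an unadjusted p under 0.05 in females by edgeR (6.73% of all transcripts did), and neither DESeq2 nor limma-voom called any of them. The median log2 fold change of the 7 was 0.06 in males and -0.06 in females, beside 0.01 and 0.00 over all transcripts.

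**Figure D1:**
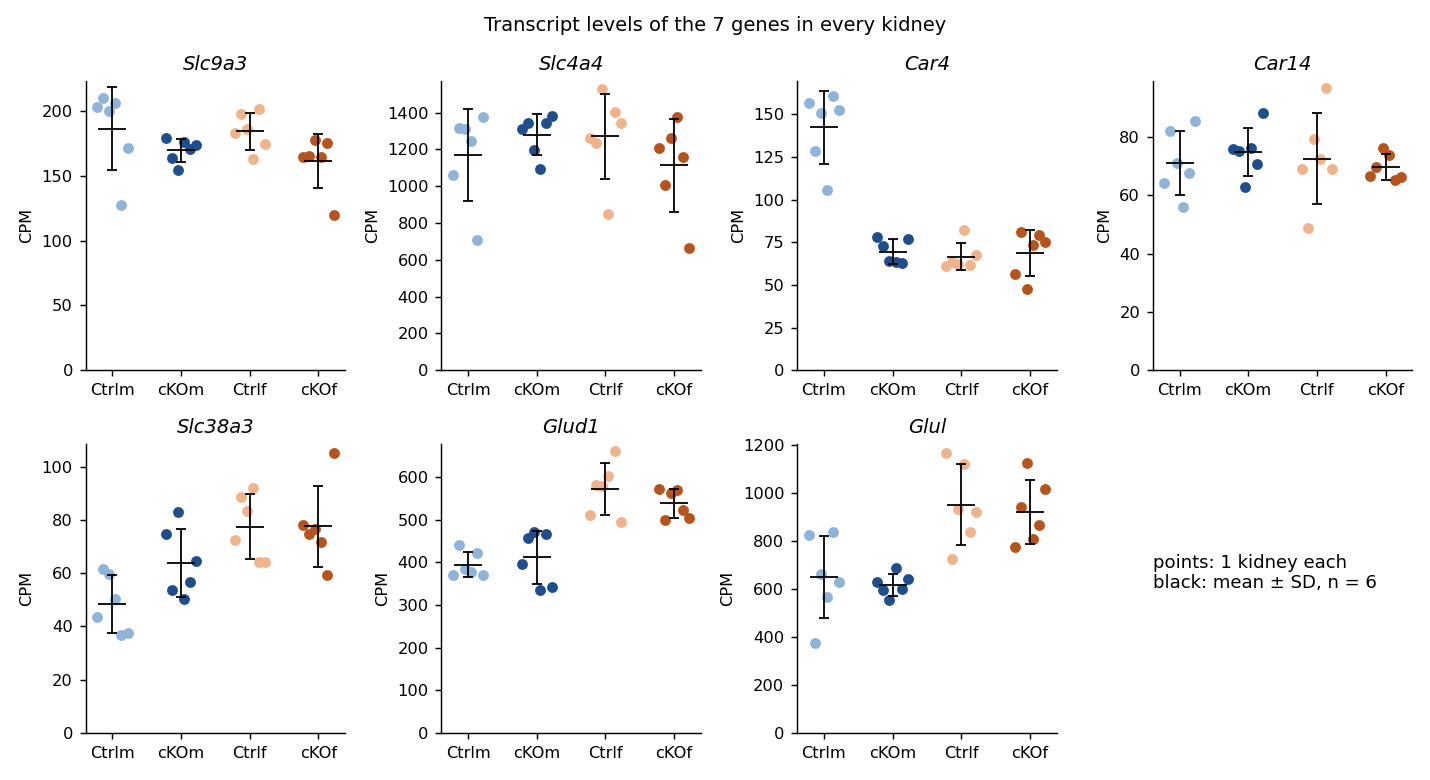
Transcript level in CPM (vertical axis, from 0) of each of the 7 genes in 24 kidneys, by group. Points are kidneys and black bars are mean and SD of 6 mice. The 6 Ctrlm kidneys stand above all other kidneys for Car4, and the male groups lie mostly under the female groups for Glud1 and Glul.

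Car4, the carbonic anhydrase that is anchored to the luminal membrane by a lipid, showed the difference in males. The gene lies on the forward strand at chr11:84957786-84966044 (GRCm38, ENSMUSG00000000805). Its level in Ctrlm kidneys was lowest at 105 CPM, with a median of 152 and a highest value of 161. In cKOm kidneys it ran from 62.7 CPM over a median of 68.4 to 77.9. The ranges did not overlap, and the highest cKOm kidney was well under the lowest Ctrlm kidney. Ctrlf kidneys had 61.4 to 82.0 CPM (median 63.0) and cKOf kidneys 47.8 to 81.2 (median 74.3), and all 3 groups other than Ctrlm covered much the same range.

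Car4 averaged 142 ± 21.3 CPM over Ctrlm and 69.6 ± 7.12 over cKOm mice (SD, n = 6 mice per group). Its male log2 fold change was -1.03 (standard error 0.12, 95% interval -1.28 to -0.79, edgeR adjusted p = 1.4e-06), a level of 0.489 times that of controls. The two-sided exact permutation test over the 924 arrangements of 6 mice against 6 gave p = 0.00216, the smallest it can give. Of all transcripts, 7.38% had male groups without overlap. In females the means were 66.5 ± 7.92 and 68.9 ± 13.6 CPM (SD, n = 6), with a log2 fold change of 0.05 (95% interval -0.19 to 0.30, edgeR adjusted p = 0.902). The female interval leaves out a fall of the size seen in males. The test of the difference between both effects passed the threshold, with a log2 difference of -1.08 (standard error 0.17, 95% interval -1.43 to -0.74, edgeR adjusted p = 2.8e-04). Car4 was the only 1 of the 7 to pass it. Of all transcripts 2.31% passed, 1.49% with a lower value in males. Among the other 6 the adjusted p ran from 0.424 to 0.967.

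The Car4 difference was still called when each set of libraries that stood apart was left out in turn. It was -0.97 on the log2 scale without the 4 libraries with few reads outside exons (edgeR adjusted p = 2.4e-05) and -1.18 without the 5 kidneys with high Alb (edgeR adjusted p = 1.4e-04). The Ctrlm kidneys with the least Alb, Ctrlm 5 at 24.7 CPM and Ctrlm 6 at 15.1, had 161 and 153 CPM of Car4. Ctrlm 5 is also among the 4 libraries with few reads outside exons. Ctrlm 6 is the only Ctrlm kidney in neither set, and a fit without both sets together was not run.

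Car14, a carbonic anhydrase with a membrane-spanning segment and its active site outside the cell, showed no such pattern. It lies on the reverse strand at chr3:95897768-95904691 (ENSMUSG00000038526). The lowest, median and highest levels were 56.1, 69.3 and 85.6 CPM in Ctrlm kidneys and 62.8, 75.7 and 88.3 in cKOm kidneys. In females they were 48.8, 70.8 and 96.8 CPM in Ctrlf and 65.3, 68.2 and 76.3 in cKOf kidneys. All 4 groups overlapped. Car14 had a log2 fold change of 0.07 for males (95% interval -0.17 to 0.32, edgeR adjusted p = 0.839) and -0.06 in females (95% interval -0.30 to 0.18, edgeR adjusted p = 0.880). Exons of Car14 and Aph1a, on opposite strands, share 445 bases, and the strand setting of the authors' counting is not given in the sources used here. Aph1a had 8110 counts over the 24 kidneys and Car14 38752, so a share of Car14 reads may be assigned by that setting.

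The 250 bases before the start of both carbonic anhydrase genes are shown because 1 of the pair differed between cKOm and Ctrlm kidneys and the other did not. They are RefSeq starts on GRCm38.p6, written 5′ to 3′ on the strand of the gene, and capitals mark the hexamer TGTTCT or its reverse complement AGAACA, to which the androgen receptor can bind. Car4 is chr11:84957504-84957753 on the forward strand (56.4% G and C) and Car14 is chr3:95904686-95904935 on the reverse strand (62.0%).
Car4: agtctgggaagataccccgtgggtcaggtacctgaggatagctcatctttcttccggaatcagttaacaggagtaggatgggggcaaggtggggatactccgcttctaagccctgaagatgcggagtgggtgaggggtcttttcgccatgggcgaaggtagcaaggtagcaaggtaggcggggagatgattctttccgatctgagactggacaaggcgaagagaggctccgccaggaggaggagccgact
Car14: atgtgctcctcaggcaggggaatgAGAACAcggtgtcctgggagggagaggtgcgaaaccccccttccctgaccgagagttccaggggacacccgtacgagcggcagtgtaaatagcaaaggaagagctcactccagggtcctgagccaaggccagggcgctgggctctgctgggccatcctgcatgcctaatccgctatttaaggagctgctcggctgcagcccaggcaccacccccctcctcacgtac
On either strand, the hexamer occurred 1 time before Car14, with its first base at -226 from the start, and not before Car4. It occurs in 16.1% of the 32851 promoters of the same length. The other motifs searched on both strands were the full androgen response element, which is an inverted repeat of the hexamer (0.00913% of promoters), a direct repeat of the nuclear receptor hexamer AGGTCA with a spacer of 1 base (0.0335%), GTTAAT, a part of the HNF1 site (6.43%), and the TATA box TATAAA (12.4%). None of these was found in either window, nor was any of the 5 motifs found in the windows of Slc9a3, Slc4a4, Glud1 and Glul. The promoter of Slc38a3 was not analysed here. A match or its lack describes these letters and not the binding of a factor.

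Slc9a3, the apical exchanger of sodium for protons, lies at chr13:74121457-74169442 on the forward strand (ENSMUSG00000036123). The lowest, median and highest levels were 128, 202 and 210 CPM in Ctrlm and 155, 172 and 179 in cKOm kidneys. In females they were 163, 185 and 201 CPM in Ctrlf and 120, 165 and 178 in cKOf kidneys. In both sexes every cKO kidney lay under the median of its controls, and the groups overlapped. Log2 fold changes of Slc9a3 were -0.13 in males (95% interval -0.34 to 0.07, edgeR adjusted p = 0.588) and -0.19 in females (95% interval -0.40 to 0.02, edgeR adjusted p = 0.369). In females the two-sided exact permutation test on the mean CPM gave p = 0.0368, 1 of 14 such tests over the members and both sexes.

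Slc4a4, the basolateral cotransporter of sodium and bicarbonate, lies at chr5:88886818-89239653 on the forward strand (ENSMUSG00000060961). The lowest, median and highest levels were 710, 1279 and 1375 CPM in Ctrlm and 1092, 1327 and 1384 in cKOm kidneys. In females they were 848, 1304 and 1529 CPM in Ctrlf and 666, 1183 and 1378 in cKOf kidneys. The groups overlapped in both sexes. Log2 fold changes of Slc4a4 were 0.13 in males (95% interval -0.19 to 0.44, edgeR adjusted p = 0.770) and -0.19 in females (95% interval -0.51 to 0.12, edgeR adjusted p = 0.619). The intervals are wide and do not show that the level was the same in both genotypes.

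Both transporters had a lower median level in the 4 libraries with few reads outside exons. In the 4 libraries with under 5% of such reads, Slc4a4 was at 666 to 1062 CPM (median 779) and in the other 20 at 1006 to 1529 (median 1312). In each of the groups Ctrlm, Ctrlf and cKOf, the lowest Slc4a4 value came from 1 of these libraries. For Slc9a3 the ranges were 120 to 203 CPM (median 145) and 155 to 210 (median 176). Without the 4 libraries, Slc9a3 passed the threshold in males, with a log2 fold change of -0.24 (edgeR adjusted p = 0.0343), while without the 5 kidneys with high Alb it was 0.14 (edgeR adjusted p = 0.737). For Slc4a4 in males these values were -0.06 (edgeR adjusted p = 0.773) and 0.31 (edgeR adjusted p = 0.644). The part of this library feature in the Slc9a3 and Slc4a4 values was not tested further.

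**Figure D2:**
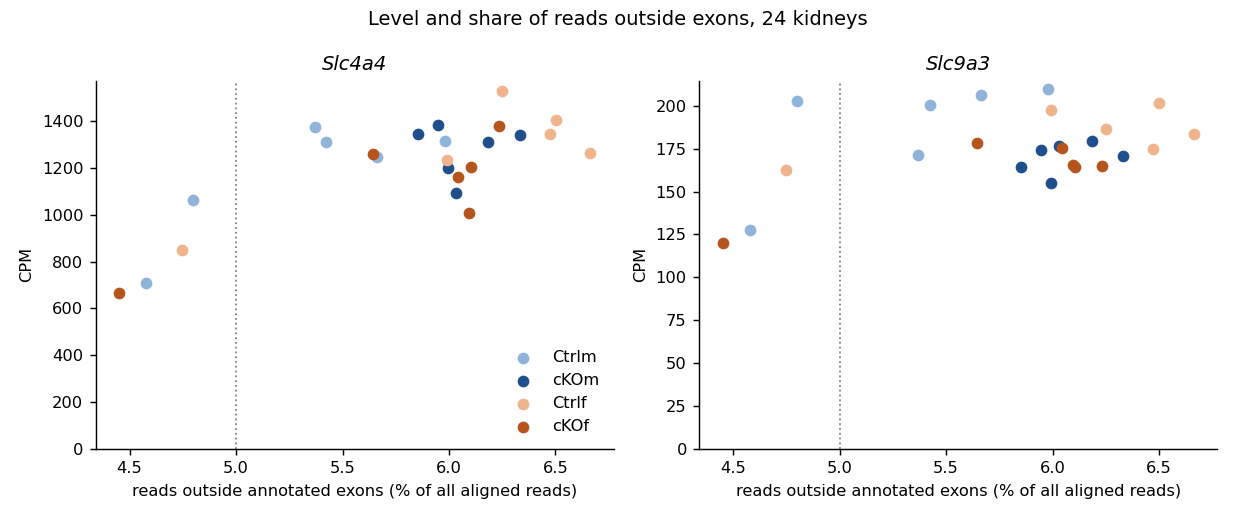
Level of Slc4a4 and Slc9a3 in CPM (vertical axes, from 0) against the percentage of all aligned reads that fell outside annotated exons, with 1 point per kidney and groups by colour. The dotted line marks 5%, and the 3 lowest Slc4a4 values are among the 4 points to its left.

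Slc38a3, the basolateral glutamine transporter SNAT3, lies at chr9:107650634-107669530 on the reverse strand (ENSMUSG00000010064). The lowest, median and highest levels were 36.6, 47.0 and 61.7 CPM in Ctrlm and 50.2, 60.6 and 82.9 in cKOm kidneys. In females they were 64.3, 77.9 and 92.1 CPM in Ctrlf and 59.2, 75.8 and 105 in cKOf kidneys. The cKOm kidneys lay between the Ctrlm and the female groups and overlapped with each. Between the male groups the log2 fold change was 0.40 (standard error 0.15, 95% interval 0.09 to 0.70), which did not pass after adjustment (edgeR adjusted p = 0.143). The two-sided exact permutation test gave p = 0.0519 for n = 6 against 6. In females the log2 fold change was 0.00 (95% interval -0.30 to 0.30, edgeR adjusted p = 0.998). The male value depended on which kidneys were kept. Leaving out 1 mouse gave 0.31 to 0.48 and no call. Without the 5 kidneys with high Alb it was 0.80 and passed (edgeR adjusted p = 0.0318), and without the 4 libraries with few reads outside exons it was 0.25 (edgeR adjusted p = 0.406).

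Glud1, the mitochondrial glutamate dehydrogenase, lies at chr14:34310727-34345265 on the forward strand (ENSMUSG00000021794). The lowest, median and highest levels were 371, 381 and 441 CPM in Ctrlm and 335, 427 and 470.5 in cKOm kidneys. In females they were 494, 580 and 662 CPM in Ctrlf and 500, 542 and 572 in cKOf kidneys. The genotypes overlapped in both sexes. Log2 fold changes of Glud1 were 0.06 in males (95% interval -0.12 to 0.25, edgeR adjusted p = 0.816) and -0.09 in females (95% interval -0.27 to 0.10, edgeR adjusted p = 0.722). These were the narrowest intervals among the 7 transcripts.

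Glul, the glutamine synthetase, lies at chr1:153899944-153909723 on the forward strand (ENSMUSG00000026473). The lowest, median and highest levels were 377, 646 and 838 CPM in Ctrlm and 554, 616 and 688 in cKOm kidneys. In females they were 727, 929 and 1167 CPM in Ctrlf and 775, 906 and 1128 in cKOf kidneys. The Ctrlm kidneys spread more widely than the cKOm kidneys, with an SD of 172 against 45.9 CPM (n = 6 each), and enclosed them. Log2 fold changes of Glul were -0.07 in males (95% interval -0.36 to 0.22, edgeR adjusted p = 0.875) and -0.04 in females (95% interval -0.33 to 0.25, edgeR adjusted p = 0.932). The male value was 0.12 without the 4 libraries with few reads outside exons (edgeR adjusted p = 0.722). Without the 5 kidneys with high Alb it was -0.32 (edgeR adjusted p = 0.411). Genes nearly identical to parts of both enzymes took few reads. Glud-ps matches Glud1 at 97.6% over 656 bases and had 103 counts over the 24 kidneys, and Glns-ps1 matches Glul at 96.8% over 1126 bases and had 64.

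**Figure D3:**
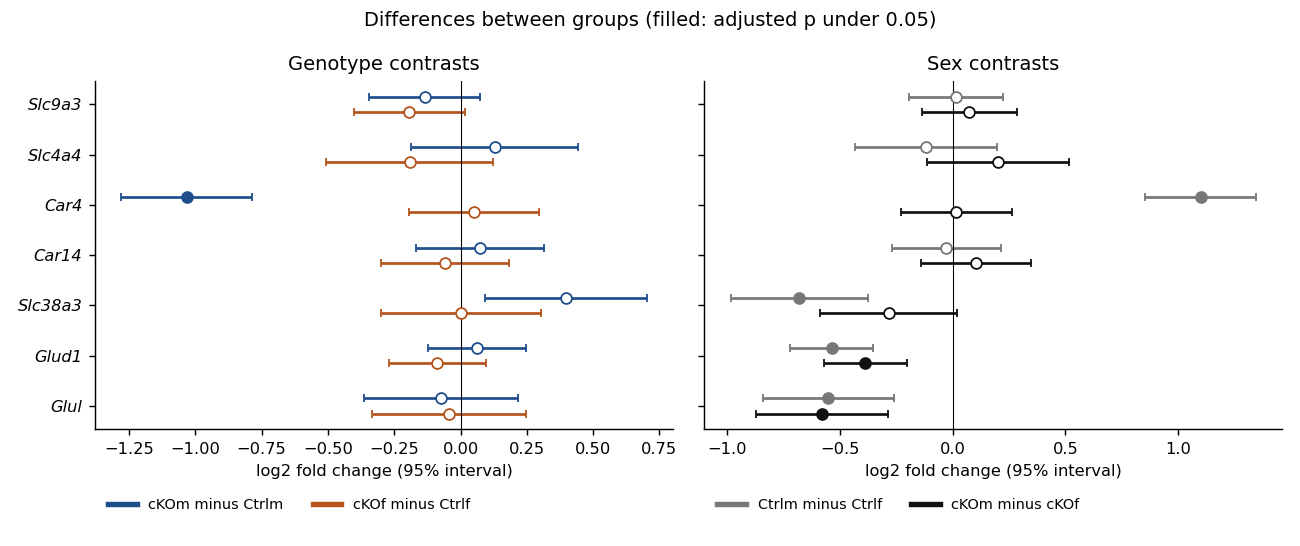
Log2 fold change (horizontal axis) of the 7 genes between genotypes (left) and between sexes (right), with 95% intervals from edgeR. Filled points passed an adjusted p of 0.05: 1 in males, 0 in females, 4 between control sexes and 2 between cKO sexes.

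The level of 4 of the 7 transcripts differed between control males and control females, where 16.8% of all transcripts did, 8.71% being higher and 8.11% lower in males. Car4 was higher in males, with a log2 difference of 1.10 (standard error 0.12, edgeR adjusted p = 8.2e-08), 2.14 times the level of Ctrlf kidneys. The 3 transcripts of glutamine and glutamate handling were lower in males. The log2 difference of Ctrlm against Ctrlf was -0.68 for Slc38a3 (standard error 0.15, edgeR adjusted p = 0.0015), -0.54 for Glud1 (standard error 0.09, edgeR adjusted p = 6.5e-05) and -0.55 for Glul (standard error 0.14, edgeR adjusted p = 0.00677). Control kidneys of both sexes did not overlap for Car4, Slc38a3 and Glud1, as for 7.35% of all transcripts, and overlapped for Glul. Slc9a3, Slc4a4 and Car14 did not pass, with log2 differences of 0.02, -0.12 and -0.03. These comparisons share the control kidneys with the genotype comparisons.

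The Glul call between control sexes was lost with a score of liver transcripts as a covariate (log2 difference -0.56, edgeR adjusted p = 0.0515) and without the 5 kidneys with high Alb (-0.35, edgeR adjusted p = 0.205). The same removal moved the Slc38a3 difference to -1.04 (edgeR adjusted p = 0.00115). Without the 4 libraries with few reads outside exons, the Slc38a3 difference was -0.49 (edgeR adjusted p = 0.0295). In the 4 Ctrlm kidneys with high Alb (mice 1 to 4) Glul was at 825, 377, 662 and 569 CPM. In the other 2 (mice 5 and 6) it was at 838 and 630 CPM. The part of the kidneys with high Alb in the Glul difference was not tested.

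Between cKOm and cKOf kidneys, 2 of the 7 passed, against 8.14% of all transcripts. Both were lower in males, as were 4.0% of all transcripts, with a log2 difference of -0.39 for Glud1 (standard error 0.09, edgeR adjusted p = 0.00553) and -0.58 for Glul (standard error 0.14, edgeR adjusted p = 0.00901), and for both the sexes did not overlap, as for 6.77% of all transcripts. Car4, which differed between control sexes, had a log2 difference of 0.02 between cKO sexes (95% interval -0.23 to 0.26, edgeR adjusted p = 0.960). For Slc38a3 the log2 difference was -0.28 (95% interval -0.59 to 0.02, edgeR adjusted p = 0.267).

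The order of group means thus differed by gene. For Car4 it was Ctrlm, then cKOm, cKOf and Ctrlf, with means of 142, 69.6, 68.9 and 66.5 CPM, and only Ctrlm stood apart beyond the spread. For Slc38a3 it ran from cKOf (77.7 CPM) and Ctrlf (77.6) over cKOm (63.7) to Ctrlm (48.3), where the neighbours cKOm and Ctrlm did not pass the test. For Glud1 it was Ctrlf (572 CPM), cKOf (538), cKOm (412) and Ctrlm (394), and for Glul Ctrlf (953), cKOf (924), Ctrlm (650) and cKOm (618). In both enzymes the groups of 1 sex did not pass the test against each other.

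Other genes of these pathways were taken from 5 lists with 54 genes, of which 51 were tested. In males, 16 of the 51 passed (31.4%, beside 9.05% of all transcripts), 7 higher and 9 lower in cKOm mice (4.14% and 4.9% of all transcripts). The median log2 fold change of the 51 was -0.07. In females, 3 passed (5.88%, beside 0.851%), 1 higher and 2 lower (0.391% and 0.46% of all transcripts). The lists were chosen with earlier results of these data known, so these shares cannot show that the pathways changed more than other genes. The male number was sensitive to the kidneys with high Alb, without which 6 were called.

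Of 18 partners of bicarbonate transport, 2 rose and 4 fell in males. Slc9a8, which encodes another exchanger of sodium for protons, fell from 122 ± 5.85 to 66.4 ± 12.6 CPM, mean and SD of n = 6 mice, which was -0.88 on the log2 scale (edgeR adjusted p = 6.3e-05). Slc9a3r1, the scaffold NHERF1 that holds NHE3 and phosphate transporters at the brush border, had a log2 fold change of -0.41 (edgeR adjusted p = 0.0159). Agtr1a, the receptor of angiotensin II, fell by 0.40 on the log2 scale (edgeR adjusted p = 0.00849). Among the carbonic anhydrases, cytosolic Car2 rose from 276 ± 18.4 to 408 ± 27.9 CPM, 0.56 on the log2 scale (edgeR adjusted p = 2.1e-06), and Car12, a membrane enzyme, by 0.31 (edgeR adjusted p = 0.0442). The Car12 call was lost in 21 of 35 alternatives, RLE normalization (edgeR adjusted p = 0.06) and both other filters (edgeR adjusted p = 0.0527 and 0.127) among them. Mitochondrial Car5b fell in males by 0.29 (edgeR adjusted p = 0.0271). It was also the only partner that passed in females, with -0.36 (edgeR adjusted p = 0.00476).

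Of 12 transporters of glutamine and mitochondrial carriers, 3 rose and 1 fell in males. Slc7a8 and Slc3a2, the light and the heavy chain of the basolateral neutral amino acid exchanger LAT2, rose by log2 fold changes of 0.61 (edgeR adjusted p = 0.00399) and 0.43 (edgeR adjusted p = 0.00337). In each of them the male groups did not overlap, as for 7.38% of all transcripts. Both calls were lost without the kidneys with high Alb (edgeR adjusted p = 0.263 and 0.347). Slc25a22, a mitochondrial glutamate carrier, rose from 16.4 ± 3.09 to 25.2 ± 2.93 CPM in males (log2 fold change 0.62, edgeR adjusted p = 0.00325) and from 16.4 ± 2.47 to 22.8 ± 4.59 in females (SD, n = 6, log2 fold change 0.48, edgeR adjusted p = 0.0281). The female call of Slc25a22 was lost in 10 of 35 alternatives. Among these were a fit of the groups compared alone (edgeR adjusted p = 0.0573), adjustment within each sex (edgeR adjusted p = 0.192), and leaving out Ctrlf 2, 3, 4 or 5 or cKOf 2 or 6 (edgeR adjusted p = 0.0511 to 0.0794). For the dicarboxylate carrier Slc25a10 the male log2 fold change was -0.46 (edgeR adjusted p = 0.00686).

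Of 14 enzymes of glutamine and glutamate, 1 rose and 4 fell in males. Ggt1, the brush border enzyme that splits glutathione and releases glutamate, fell from 1184 ± 243 to 546 ± 53.3 CPM (SD, n = 6), a change of -1.12 on the log2 scale (edgeR adjusted p = 4.8e-07). Its female groups had 748 ± 110 and 709 ± 103 CPM, and the effects differed between sexes (log2 difference -1.04, edgeR adjusted p = 5.2e-04). The alanine transaminase Gpt fell from 16.2 ± 4.89 to 6.95 ± 0.58 CPM in males (SD, n = 6, log2 fold change -1.22, edgeR adjusted p = 6.3e-05), and the effects again differed between sexes (log2 difference -1.14, edgeR adjusted p = 0.0132). The mitochondrial alanine transaminase Gpt2 fell in both sexes, by 0.40 in males (edgeR adjusted p = 0.0329) and 0.75 in females (edgeR adjusted p = 5.3e-05). Asparagine synthetase (Asns) rose from 4.14 ± 1.61 to 9.44 ± 2.55 CPM in males (log2 fold change 1.19, edgeR adjusted p = 0.0018). Aldh4a1, which forms glutamate from a product of proline breakdown, had a log2 fold change of -0.39 (edgeR adjusted p = 0.0374).

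Pck1, which takes the carbon of glutamine towards glucose, had log2 fold changes of 0.27 in males (edgeR adjusted p = 0.516) and 0.21 in females (edgeR adjusted p = 0.654). Pck1 was lower in control males than in control females, with a log2 difference of -0.84 (edgeR adjusted p = 0.00138). Gls2, named after its values were seen, is the widest open point in the plot of these lists at a log2 fold change of -1.41 (edgeR adjusted p = 0.307), and had at most 2.27 CPM in any kidney. Of 4 ammonia transport genes 0 passed in either sex by edgeR, and 0 had an unadjusted p under 0.05. Of 3 genes of acid-base sensing, Insrr, a receptor that responds to alkaline medium, rose in males by a log2 fold change of 0.37 (edgeR adjusted p = 0.0193).

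**Figure D4:**
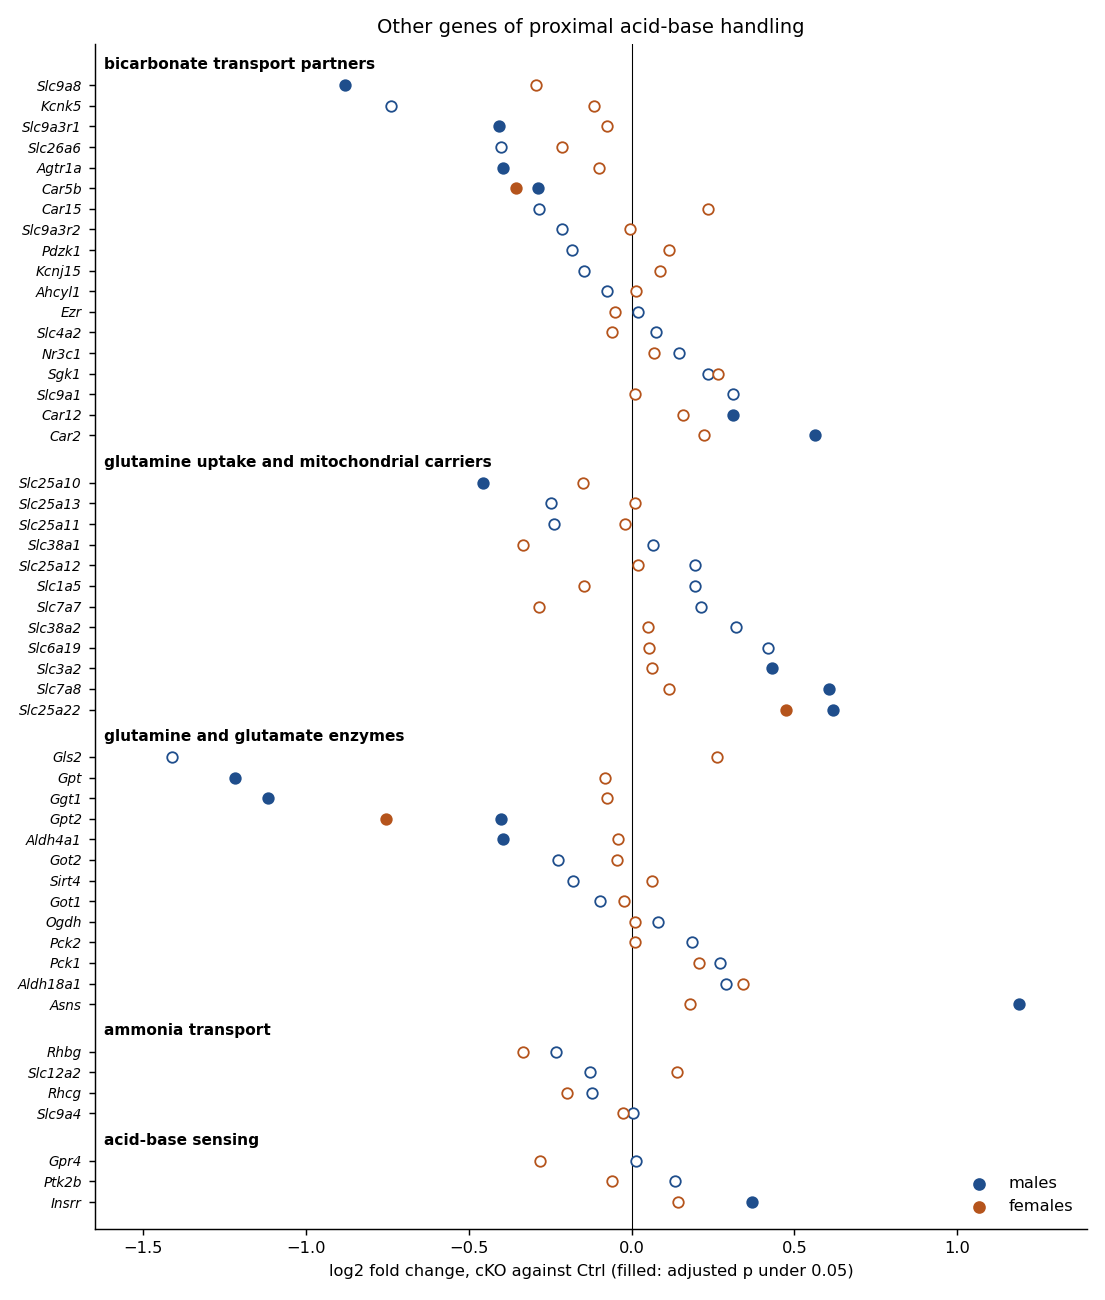
Log2 fold change of cKO against Ctrl mice (horizontal axis) for 50 of the 51 tested genes of 5 lists, in males (blue) and females (orange). Filled points passed an adjusted p of 0.05, which were 16 in males and 3 in females.

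Of the 16 male calls, Slc9a8, Car2, Gpt and Ggt1 were called under each of 35 alternative settings, and 16 of 16 kept their direction in all of them. Without the kidneys with high Alb 10 of the 16 were lost, with edgeR adjusted p from 0.053 for Asns to 0.503 for Slc25a10. The others were Slc9a3r1, Car12, Car5b, Agtr1a, Slc7a8, Slc3a2, Slc25a22 and Gpt2. Agtr1a, Slc3a2, Slc25a22 and Asns were lost under no other setting. With the liver score as a covariate 6 were lost (Slc9a3r1, Car12, Car5b, Slc7a8, Slc25a10 and Gpt2), and without the 4 libraries with few reads outside exons 3 were lost (Car12, Aldh4a1 and Insrr). Leaving out 1 mouse ended 6 of the 16 calls. These were Slc9a3r1 (without Ctrlm 3), Car5b (Ctrlm 3 or 5 or cKOm 4), Insrr (Ctrlm 5 or 6 or cKOm 6), Aldh4a1 (Ctrlm 3 or 5 or cKOm 1, 3, 4 or 6), Gpt2 (Ctrlm 1, 2 or 3 or cKOm 1, 2, 3 or 5) and Car12, which was lost without any of Ctrlm 1 to 5, of cKOm 1, 2, 3 and 5, of Ctrlf 1 and 4, and of cKOf 2, 4 and 5. Their edgeR adjusted p was then at most 0.139.

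Markers of the cells that carry these genes were read beside them. All 5 markers of the last segment of the proximal tubule (S3) were lower in cKOm mice, with log2 fold changes from -2.56 for Cyp7b1 to -0.83 for Slc5a10. Their summed level was 2165 to 3111 CPM in Ctrlm and 694 to 1110 in cKOm kidneys, and 603 to 933 in Ctrlf and 472 to 770 in cKOf kidneys. Between control sexes the 5 went both ways. Atp11a, Slc7a13 and Cyp7b1 were higher in males, as Car4 was, while Slc22a19 (61.2 CPM in Ctrlm and 139 in Ctrlf) and Slc5a10 (81.6 and 139 CPM) were lower in males. Of 8 general proximal tubule markers, Lrp2, Slc34a1 and Ass1 were lower in cKOm mice (all 8 together 11043 to 12490 CPM in Ctrlm, 9716 to 10665 in cKOm), and in females Ass1. Slc5a12 and Hnf4a, named after their values were seen, had the opposite sign in males without passing. Slc5a12 was at 320 ± 77.2 CPM in Ctrlm and 495 ± 62.0 in cKOm kidneys (SD, n = 6, log2 fold change 0.63, edgeR adjusted p = 0.0512). Its male groups did not overlap, as for 7.38% of all transcripts. Hnf4a had a log2 fold change of 0.20 (edgeR adjusted p = 0.149). Of 4 markers of the first segments, Slc22a6 was lower in cKOm mice and the other 3 did not pass. The median log2 fold change of the 4 was 0.09. Their summed level was 2305 to 2556 CPM in Ctrlm and 2020 to 2491 in cKOm kidneys. The part of these markers in the Car4 result was not tested. In RNA of whole kidneys, fewer cells of a type and less RNA per cell cannot be told apart.

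Car4 is also made by capillary endothelium, and 0 of 5 endothelial markers passed in either sex by edgeR, 1 with an unadjusted p under 0.05 in males and 0 in females. The summed endothelial level was 361 to 473 CPM in Ctrlm and 362 to 427 in cKOm kidneys. Of 10 hepatocyte markers, Alb, Apoa2 and Fgg were lower and Serpina1a was higher in cKOm mice. Their summed level was 126 to 972 CPM in Ctrlm (median 688) and 138 to 547 in cKOm kidneys (median 169). In females it was 92.5 to 137 CPM in Ctrlf (median 109) and 66.0 to 149 in cKOf kidneys (median 99.0). Glul is a gene that liver cells also use, and the part of these transcripts in its values was not tested. Of 5 intercalated cell markers, Slc4a1 was lower in cKO mice of both sexes, Slc26a4 was higher in cKOm and Aqp6 lower in cKOf mice. In males Slc12a1, of 3 markers of the thick ascending limb, was higher, and Csf1r, of 4 macrophage markers, was lower. None of the markers of podocytes, distal convoluted tubule, principal cells, fibroblasts or adipocytes passed in either sex by edgeR, although 1 marker of each of the first 4 had an unadjusted p under 0.05 in males and 0 did in females. The adrenal markers Cyp11b1, Cyp11b2 and Cyp21a1 had at most 8 counts in any kidney.

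Over the 24 kidneys, the transcript most like each of the 7 was found by Pearson's r of log2 CPM among 9439 transcripts with a mean of at least 10 CPM. The kidneys share sex, genotype and library features, so these values are given as a description. Car4 was closest to Npm3 (r = 0.95) and Acy3 (0.94). Slc9a3 was closest to Tln1 (0.86) and Slc12a7 (0.83), Slc4a4 to Nr2c2 (0.92) and Fam168b (0.91), and Car14 to Slc25a44 (0.72) and Flcn (0.70). Slc38a3 was closest to Mgst1 (0.85) and Cpn1 (0.82), Glud1 to Rdh16 (0.89) and Gsta2 (0.88), and Glul to Cdkn1c (0.88) and Xpnpep1 (0.87). Among the 7 themselves, r was 0.71 for Slc9a3 and Slc4a4, which both had their lowest value in cKOf 6. For Slc38a3 and Glud1, both higher in Ctrlf than in Ctrlm kidneys, r was 0.63. It was -0.65 for Car4 and Slc38a3 and 0.00 for Car4 and Car14.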

How the data were processed

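RNA of 24 whole kidneys was analysed from the counts that the authors deposited, 1 file per mouse, as whole numbers of reads per Ensembl gene without normalization. Per the labels and the methods of the study, TruSeq Stranded mRNA libraries were trimmed with cutadapt 1.8, aligned to GRCm38 with STAR 2.5.3a and counted with HTSeq 0.9.1. Its closing lines for uncounted reads (34.0 to 41.5% of reads per kidney) were set aside. Names came from the GENCODE annotation of GRCm38 for 55154 of 55335 genes. Kidneys of a group differed by more than sampling noise (chi-square per degree of freedom 9.24 to 91.1 over 60 pairs).

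Transcripts with 1 CPM or more in any kidney entered the test in R 4.3.3 with edgeR 4.0.16 (TMM, 1 model of 4 groups, quasi-likelihood test). The Benjamini-Hochberg adjustment covered both genotype contrasts jointly and each other contrast separately, always over all transcripts. The test was checked on simulated data. Log2 CPM used a prior count of 2. Near-identical genes were sought with BLAST 2.17.0, and promoters were taken from RefSeq (6 of 7 genes, Slc4a4 with 2). Figures used matplotlib 3.10.9.

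All 7 genes and Pex5 were named, as were genes of the lists that passed in males, in females or in the interaction, Pck1, markers that passed or were near 0, and the 2 most similar transcripts of each gene. The 7 genes and all lists were chosen with earlier results of these data known. Adcy10, Aqp8 and Slc25a18 of the lists were not tested, and 1 gene that the naming rule also covers is not reported here. Alternatives were RLE normalization, DESeq2 1.42.0, limma-voom (limma 3.58.1), other filters, only the groups compared, adjustment by sex, a block for the replicate number, a score of liver transcripts as covariate, each mouse left out, and, chosen after seeing the data, removal of 4 and of 5 libraries. Numbers in the labels were not taken as pairs of kidneys of different groups.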

Additional observations from a re-analysis of the deposited data

Results flagged for a closer look

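In 28 groups of 6 kidneys (7 transcripts in 4 groups), the highest or lowest kidney was compared with its nearest neighbour relative to the range of the group. A gap of over 0.625 of the range was met 2 times, and chance gives about 1 in 20 groups. Slc9a3 was at 120 CPM in cKOf 6, a gap of 0.765 of the range under the other cKOf kidneys, and this library was also the one with the fewest reads outside exons. Car4 was at 82.0 CPM in Ctrlf 4, a gap of 0.696 of the range above the other Ctrlf kidneys.

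Among the 7 genes and the 5 pathway lists, the genotype effect differed between males and females by edgeR's interaction test for 3 transcripts. The log2 fold change in males minus that in females was -1.08 for Car4 (adjusted p = 2.8e-04), -1.14 for Gpt (adjusted p = 0.0132) and -1.04 for Ggt1 (adjusted p = 5.2e-04). Of the cell markers, Atp11a and Cyp7b1 also passed this test with a negative value, and Serpina1a with a positive value. Sex and the extent of Pex5 deletion cannot be told apart in this test. The Gpt call was lost with the liver score as covariate (adjusted p = 0.0678), without the 4 libraries with few reads outside exons (adjusted p = 0.109) and without the 5 kidneys with high Alb (adjusted p = 0.134).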

How the results depend on the processing

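Car4 was called in males under all 35 alternatives, with a log2 fold change from -1.18 to -0.97 and edgeR, DESeq2 or limma-voom adjusted p from 3.7e-15 to 1.4e-04. Its interaction was called under all 33 alternatives, with adjusted p of at most 0.00173. Leaving out 1 mouse kept the number of members called at 1 in males, 0 in females, 1 for the interaction, 4 between control sexes and 2 between cKO sexes. The number of list genes called then ran from 11 to 19 in males and from 2 to 4 in females. With settings chosen after seeing the data, 2 members were called in males without the 4 libraries with few reads outside exons (Slc9a3 added), 2 without the 5 kidneys with high Alb (Slc38a3 added), and 6 list genes in males without the latter, where 2 Ctrlm kidneys remained. By exact permutation on CPM with raw library sizes, 2 members passed in males (Slc38a3 added) in place of 1. The Glul call between control sexes was lost under 2 alternatives, as given above. No called value changed its sign. Same-numbered kidneys of both genotypes correlated by -0.06 to 0.12 in males (2 of 6 best with their own number) and -0.20 to 0.08 in females (0 of 6), so the numbers were not taken as pairs. With the replicate number as a block, 1 member was called in males and 0 in females (Car4 log2 fold change -1.04, edgeR adjusted p = 1.4e-05), and 13 list genes in males and 3 in females, with the male calls of Car12, Gpt2 and Aldh4a1 ended. Intervals of the members not called reached up to 0.70 on the log2 scale, so smaller changes could have been missed.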
